A study of Mus musculus with 563 samples.

Results

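The genes for the proteins of the cytosolic ribosome were followed in single hematopoietic stem cells (HSCs) of old and young mice. The gene group was chosen by symbol, as genes named Rpl or Rps with a number together with Rplp0, Rplp1, Rplp2, Rpsa and Fau, and 89 of 46041 nuclear gene entries met this rule. Of these, 78 are core members, with 46 in the large and 32 in the small ribosomal subunit. The paralogs Rps4l, Rpl3l, Rpl10l, Rpl22l1, Rpl7l1, Rpl39l and Rps27l were kept apart, which makes 7 genes. Rps3a2, Rps3a3, Rpl6l and Rps12l1 were also kept apart, because the annotation lists these 4 as processed pseudogenes (copies of a spliced messenger RNA that returned to the genome). Rows named as pseudogenes with a -ps ending and the S6 kinases do not belong to the group.

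Each library is 1 HSC, sorted from the marrow of mice at steady state. The libraries were made with Smart-seq2, modified by the authors, a method that covers whole transcripts and counts reads, not molecules. All mice, old and young, carried the Gfp-Lc3 transgene, a fusion of green fluorescent protein with LC3, which marks autophagosomes. The old cells were labelled LO, MID and HI and the young cells have no such label. The labels give no age in months, name no animal and do not say what LO, MID and HI rank, so the cells of a group were taken as 1 sample, and the group differences below carry no test. After cells with few reads were left out, 533 of 563 cells remained. The deposit holds 2 count tables, and the first and second kept 65 and 71 old LO, 68 and 66 old MID, 68 and 61 old HI, and 63 and 71 young cells. A median LO cell had 257237 nuclear gene reads, a MID cell 254723, a HI cell 340529 and a young cell 271443.

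Levels are in CPM, the reads of a gene summed over the cells of a group and scaled to a common total of nuclear gene reads with composition factors. Differences are on the scale of log2(CPM + 1), which understates those of low genes. Each was taken within a table and averaged over both, and brackets hold the value of the first table before that of the second. For a list of genes, medians were taken separately over the averaged values and over those of each table. Such a median can therefore lie outside the values in its brackets. All 10 of 10 HSC markers were read in every group and table, with summed levels of 3157 to 4045 CPM. Some marker lists of other cell types differed with age over the groups and tables. For megakaryocytes (6 of 6 genes read) the sum was 583 to 858 CPM in old and 211 to 313.5 in young cells. The lowest gene of this list was at 0.0946 to 1.77 CPM in old and at 2.10 and 2.65 in young cells. Not every gene of it was therefore higher in old cells. For dendritic cells (5 to 7 of 8 read, with Siglech, Xcr1 or Itgax at 0 in each) the sum was 848 to 1671 in old and 378 to 442 in young cells. For T and NK cells (3 to 5 of 6 read, with a Cd3 gene at 0 in each) it was 74.85 to 151 and 21.7 to 38.35. Lower in old cells were the sums for multipotent progenitors (7 or 8 of 8 read), with 431 to 616 CPM in old and 703.5 to 812 in young cells, and for B cells (3 to 5 of 6 read), with 33.2 to 73.1 and 81.9 to 89.55. The erythroid and the neutrophil and monocyte sums overlapped between old and young cells. The part of these markers in the differences below was not tested. All 20 genes of a G2 and M phase list were read in every group, but their summed level was not alike. In the first and second table LO cells had 641 and 486 CPM, MID cells 507 and 463, HI cells 1532 and 4252, and young cells 1318 and 1825. In the second table each of the 71 young cells held 20 or more Xist reads and 0 held as many from Y-linked genes, whereas 57 to 62 cells had at least 20 Y-linked reads in each other group, counted by table. Sex and age therefore cannot be told apart in the second table, and the first table holds mainly cells with Y-linked reads in all groups.

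A ribosome holds ribosomal RNA and, for most ribosomal proteins, a single copy, so the proteins of both subunits are made in matched amounts. Their messenger RNAs begin with a terminal oligopyrimidine tract, through which the kinase complex mTORC1 sets how actively they are translated. HSCs are known for a low rate of protein synthesis, and loss of a single copy of several of these genes, such as RPS19 in humans, causes anemia with marrow failure. Proteins that are not built into ribosomes can bind MDM2 and so stabilise p53, which is best known for RPL5 and RPL11. Many of these genes have processed pseudogenes elsewhere in the genome, which bears on how their reads can be counted.

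Sequences of 3 genes and a copy of each show how much a read has to tell apart. They are coding sequences of GENCODE M21 on the GRCm38 build, each 60 bases long, with positions counted from 1 at the first base of the start codon. Capitals mark bases that differ between gene and copy. Rps4x, on the X chromosome, is shown with its paralog Rps4l at chr6:148355184-148355243 on the plus strand, for coding positions 475 to 534.
Rps4x: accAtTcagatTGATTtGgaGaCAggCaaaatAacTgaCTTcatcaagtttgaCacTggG
Rps4l: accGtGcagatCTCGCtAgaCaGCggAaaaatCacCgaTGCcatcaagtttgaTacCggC

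Over 783 aligned bases Rps4l had the same base as Rps4x at 626, an identity of 79.95%, and 20 of the 60 bases shown differ. Of the 50-base windows of Rps4l, 85.1% were found in no other gene. Rpl14, a large subunit protein gene on chromosome 9, is shown with Rpl14-ps1 at chr7:45325328-45325387 on the plus strand, for coding positions 364 to 423.
Rpl14: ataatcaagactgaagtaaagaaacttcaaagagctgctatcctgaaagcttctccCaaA
Rpl14-ps1: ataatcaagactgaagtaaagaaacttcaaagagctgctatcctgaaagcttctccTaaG

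The copy differs from Rpl14 at 4 of 648 bases, and the stretch shown holds C420T and A423G, written as the base of Rpl14, its coding position and the base of the copy. The longest run without a difference was 419 bases. Rps6, on chromosome 4, which encodes the small subunit protein that the S6 kinases phosphorylate, is shown from coding position 1 to 60 with Rps6-ps4 at chr2:75191763-75191822 on the minus strand.
Rps6: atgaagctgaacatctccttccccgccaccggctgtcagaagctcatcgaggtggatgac
Rps6-ps4: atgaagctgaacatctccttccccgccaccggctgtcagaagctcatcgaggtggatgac

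All 747 coding bases of Rps6 and Rps6-ps4 are the same, so no read within them can be given to either. The row of Rps6 held 2754 reads and that of Rps6-ps4 held 8049.

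To describe this for each member, every 50-base window of its coding sequence was looked for in the transcripts of all other genes. Rps3, whose protein sits near the entry of the messenger RNA channel in the small subunit, had 91.9% windows found in no other gene, and Rps6 had 0%. The share of such windows and the level per kb of coding sequence went together over the 78 core members (Spearman's rho 0.79, a correlation across genes, which are not independent). The 30 core members with no such window had a median level of 41.1 CPM per kb, and the 10 with at least 50% had 1240. The 38 in between had 222 CPM per kb. The levels below therefore order the reads that could be counted, and their relation to the amounts of messenger RNA was not tested.

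Rps3, known also for a role in DNA repair, was among the highest: LO cells had 1924 CPM per kb, MID cells 2035, HI cells 1908 and young cells 1949. Rpl4, whose protein lines the exit tunnel, had 1796, 1895, 1780 and 1815 CPM per kb for LO, MID, HI and young cells in turn. The 4 groups lay within a narrow band for both of these genes, and MID was highest of the old groups in each. Rpl8 followed at a mean over groups of 1785 CPM per kb, Rps14 (the gene of human 5q- syndrome) at 1692 and Rpl32 at 1286. The core members held 2846907 reads in all.

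At the other end were Rpl23a at 8.89, Rpl24 at 9.24, Rpl17 at 14.05, Rpl19 at 14.1, Rps12 at 17.6 and Rps25 at 17.9 CPM per kb. Rpl23a protein lies at the tunnel exit, and Rpl24 is the gene of the Belly spot and tail mouse, whose cells make less protein. Of these 6 genes Rps25 had 1.84% windows found in no other gene and the others 0%. All of them were under the level of 10 CPM that a gene needed for a comparison. So were Rps29, Rps28, Rpl36, Rpl35, Rps23 and Rpl28, and the other 66 core members were compared. Other members lay between these ends. Rplp0, Rplp1 and Rplp2 of the ribosomal stalk had 769, 654 and 458 CPM per kb, and Rps19, Rpl13a and Rpl38 had 503, 632 and 228. Rpsa, which also encodes a laminin receptor precursor, and Fau and Rps27a, which are made as fusions with a ubiquitin-like protein and with ubiquitin, had 44.4, 36.3 and 56.4. Rpl5 and Rpl11, the partners of MDM2, had 28.3 and 34.8. Large subunit genes had a median of 127.2 CPM per kb (46 genes) and small subunit genes 159 (32 genes).

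**Figure D1:**
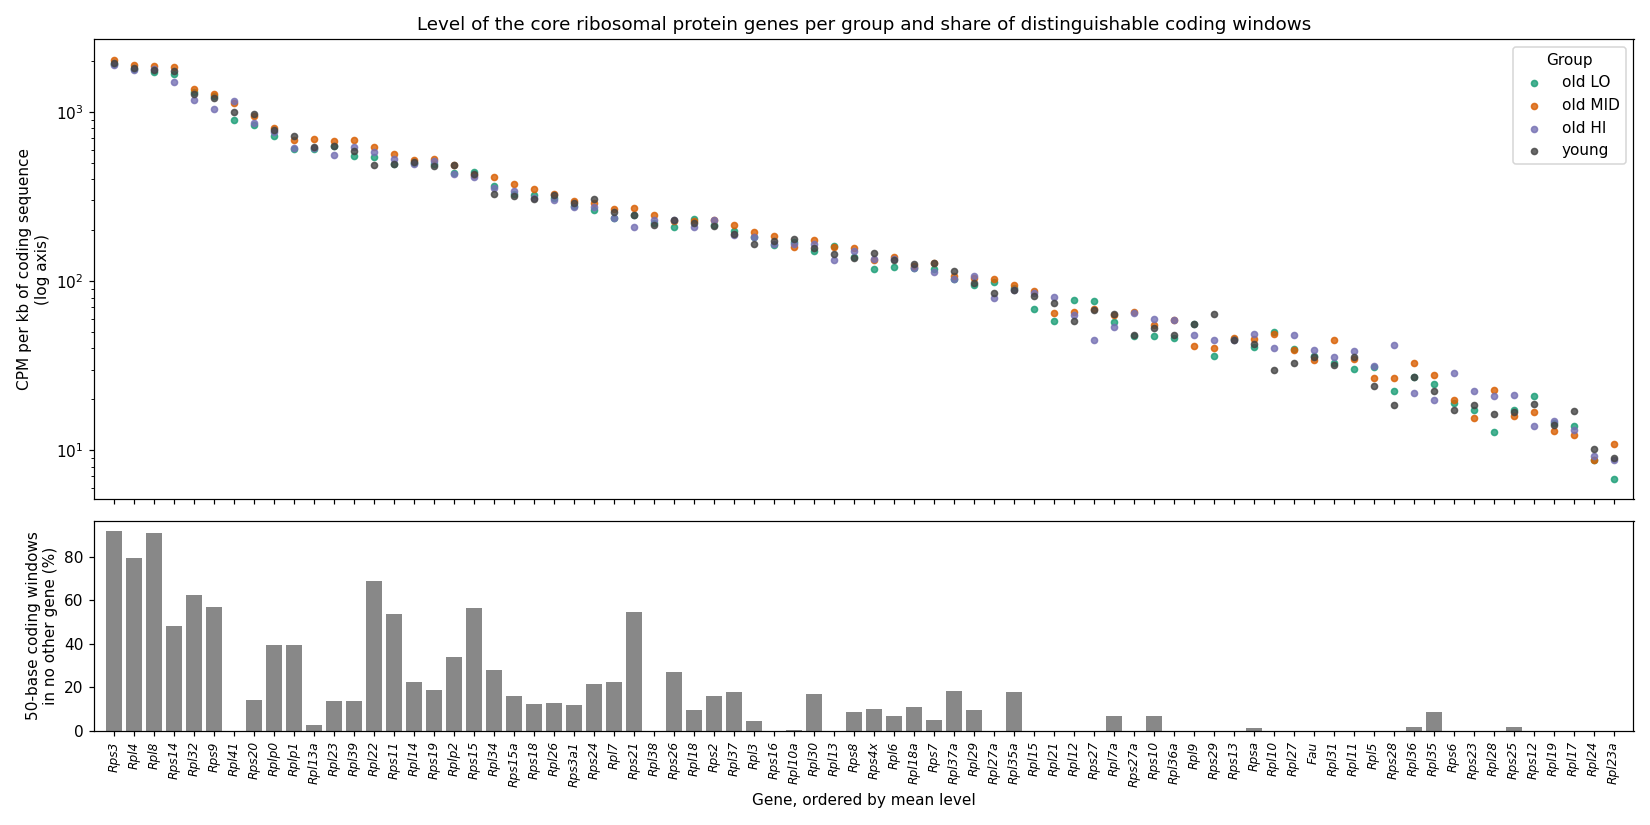
Level of core members in CPM per kb of coding sequence (log axis, upper panel, 1 point per group, both tables averaged) and the percent of 50-base coding windows found in no other gene (lower panel). The 4 groups nearly coincide for most genes, and the bars are tall at the left, where Rps3 stands at 91.9%, and absent for many genes, most of them at the right.

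Rows named as -ps pseudogenes of core members held 421562 reads, 12.9% of these and the core reads together. They are 267 rows of 58 core members, and for 13 members the pseudogene rows held more reads than the gene. Rpl14-ps1 had 100743 reads against 56255 in Rpl14, and Rpl3-ps1 had 65706 against 37573 in Rpl3. LO cells had 578 CPM of Rpl14-ps1, MID cells 601, HI cells 586 and young cells 587, and Rpl14 itself had 323, 338.6, 321 and 331 CPM in this order of groups. Neither gene nor copy differed much between groups. Of the core members, 20 have exons that overlap those of another gene.

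Core members made up a similar part of the reads in all groups, with the highest part in MID cells. Of the nuclear gene reads of the first and second table, LO cells gave 1.59% and 1.69% to core members, MID cells 1.68% and 1.83%, HI cells 1.61% and 1.57%, and young cells 1.62% and 1.72%. MID was highest within each table, while LO and HI changed places between the tables. Single cells ranged from 0.736% to 3.47% in LO, from 1.02% to 3.56% in MID, from 0.761% to 2.50% in HI and from 0.808% to 3.64% in young cells. Medians over cells of both tables were 1.64% for LO, 1.75% for MID, 1.61% for HI and 1.62% for young cells. The cells of the groups overlapped over nearly the whole range. For each read of the small subunit the large subunit had 1.04 reads (LO), 1.05 (MID), 1.08 (HI) and 1.03 (young cells).

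**Figure D2:**
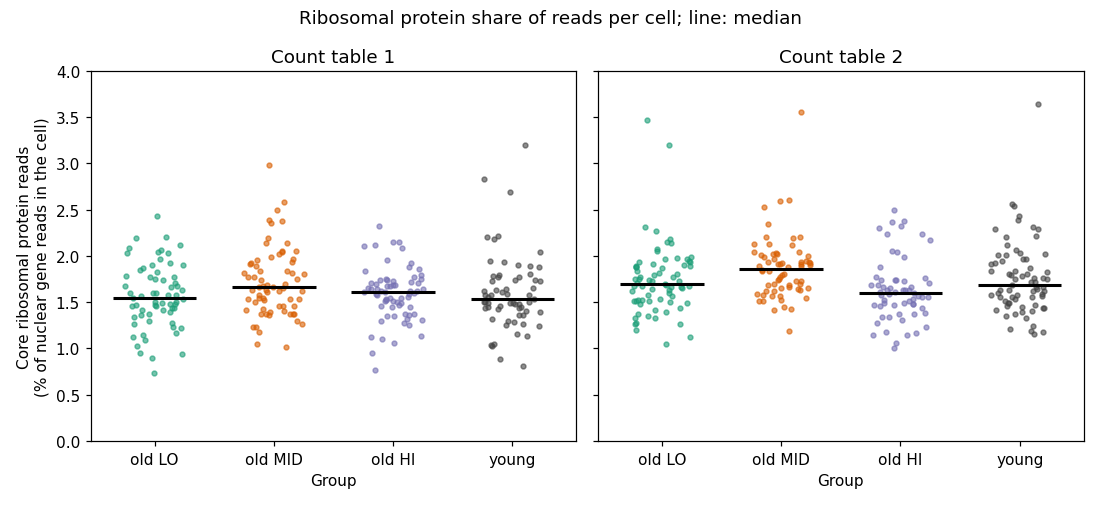
Reads of core members as a percent of nuclear gene reads in each kept cell, by group and count table (n = 61 to 71 cells per column), with the median as a line. The cells of all groups overlap, and the median of MID is the highest in both tables, at 1.66% and 1.86%.

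The share in HI cells moved with the cell cycle markers in the second table. Across the 58 HI cells of the second table with at least 100000 reads, it ran against the number of G2 and M phase genes read in the cell. Spearman's rho was -0.53, across cells that share a group, as a description. In the other 7 groups and tables rho lay between -0.22 and 0.18. Cells in which at least 8 of these genes were read were then left out, which kept 53 and 39 HI cells. The part became 1.60% and 1.72% for LO, 1.71% and 1.85% for MID, 1.66% and 1.71% for HI, and 1.64% and 1.80% for young cells. MID was still highest in both tables, and HI was below MID in both. The part of cell cycling in this was not tested.

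The comparison of old with young HSCs asks how these genes differ with the age of the mouse. The core members lay close to each other: the median difference of old minus young was 0.02 (0.03 and -0.02), with a range of -0.18 to 0.63, beside a median of 0.02 over all 10721 genes tested. Of 66 core members tested, 62 (93.9%) had a mean difference smaller than 0.32 in size, which is log2 of 5/4, beside 67.5% of all genes tested. The 31 core members at 100 CPM and over were also set beside the 2280 other genes at that level, and 31 of 31 core members and 78.9% of the others lay within this limit. In both tables alike, 23 core members were above and 18 below 0, beside 3361 above and 2922 below of all genes tested. The differences of the 2 tables did not go together over the 66 genes (Pearson's r -0.02, across genes). Rpl10 was the 1 core member past 0.32 in both tables in the direction of old cells, and 0 were past it in the other. The background was 9.23% of all genes tested higher and 6.67% lower. None of the core members met the size rule (a log2 difference of at least 1, and 0.58 in each table, with limits on level and cells), beside 1.65% of all genes higher and 0.672% lower.

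Rpl10 encodes a large subunit protein that joins last and is needed before the subunits can pair, and is a gene mutated in T cell leukemia. LO cells had 30.8 and 33.2 CPM of Rpl10, with 31.2 and 31.2 in MID, 28.9 and 23.04 in HI and 16.4 and 21.8 CPM in young cells of the first and second table. Every old value was above both young values. The difference was 0.63 (0.85 and 0.41). Reads were seen in 75.4% to 79.8% of the cells of the old groups and in 70.1% of young cells. Rpl10 lies on the X chromosome, at chrX:74270812-74273135 on the plus strand, and 0% of its windows were found in no other gene. With its pseudogene rows added the difference was 0.59. The part of sex in this difference was not tested. Of the other X-linked members, Rps4x was at -0.18 (-0.24 and -0.12), Rpl36a at 0.19 (0.43 and -0.04) and Rpl39 at 0.07 (0.08 and 0.07).

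The other members at the top, apart from Rpl22, had low levels. Rps6 averaged 14.2 CPM (LO), 14.9 (MID), 21.4 (HI) and 12.8 (young cells), a difference of old minus young of 0.36 (0.46 and 0.27). Rpl27 followed with 0.33 (0.15 and 0.51), Rps27a with 0.32 (0.11 and 0.53) and Rpl5 with 0.31 (0.32 and 0.29). Rpl5, which carries the 5S ribosomal RNA into the ribosome, averaged 27.8 CPM (LO), 23.7 (MID), 28.1 (HI) and 21.3 (young cells), and its partner Rpl11 had a difference of -0.05 (-0.01 and -0.09). Rpl22, which has a known role in T cell development and whose coding windows were 68.96% distinct, was the highest of the well-read members. Rpl22 averaged 209 CPM (LO), 237.5 (MID), 223 (HI) and 187 (young cells), a difference of 0.25 (0.19 and 0.32).

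At the lower end were the stalk protein Rplp1 with -0.18 (-0.26 and -0.11), Rps4x with -0.18, and Rpl9 with -0.18 (-0.33 and -0.02). Rpl7a had -0.15 (-0.21 and -0.09), Rps24, a gene of human Diamond-Blackfan anemia, -0.15 (-0.17 and -0.13), and Rps20 -0.14 (-0.21 and -0.07). Each of these means was smaller than 0.32 in size, and Rpl9 was past it in the first table. For Rplp1, LO cells had 187 and 226 CPM, MID cells 224 and 241, HI cells 202 and 218, and young cells 245 and 246, so both young values were above all old ones. The other stalk genes were at -0.04 (0.00 and -0.08) for Rplp0 and -0.09 (-0.01 and -0.18) for Rplp2. Among the members best known from anemia and from selective translation, Rps19 was at 0.09 (0.12 and 0.06), Rps14 at -0.05 (0.06 and -0.16), Rpl38 at 0.11 (0.13 and 0.08) and Rpl13a at 0.02 (-0.05 and 0.10). Rps3 was at 0.00 (0.00 and 0.01), Rpsa at 0.08 (0.08 and 0.08) and Fau at 0.04 (0.18 and -0.11).

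**Figure D3:**
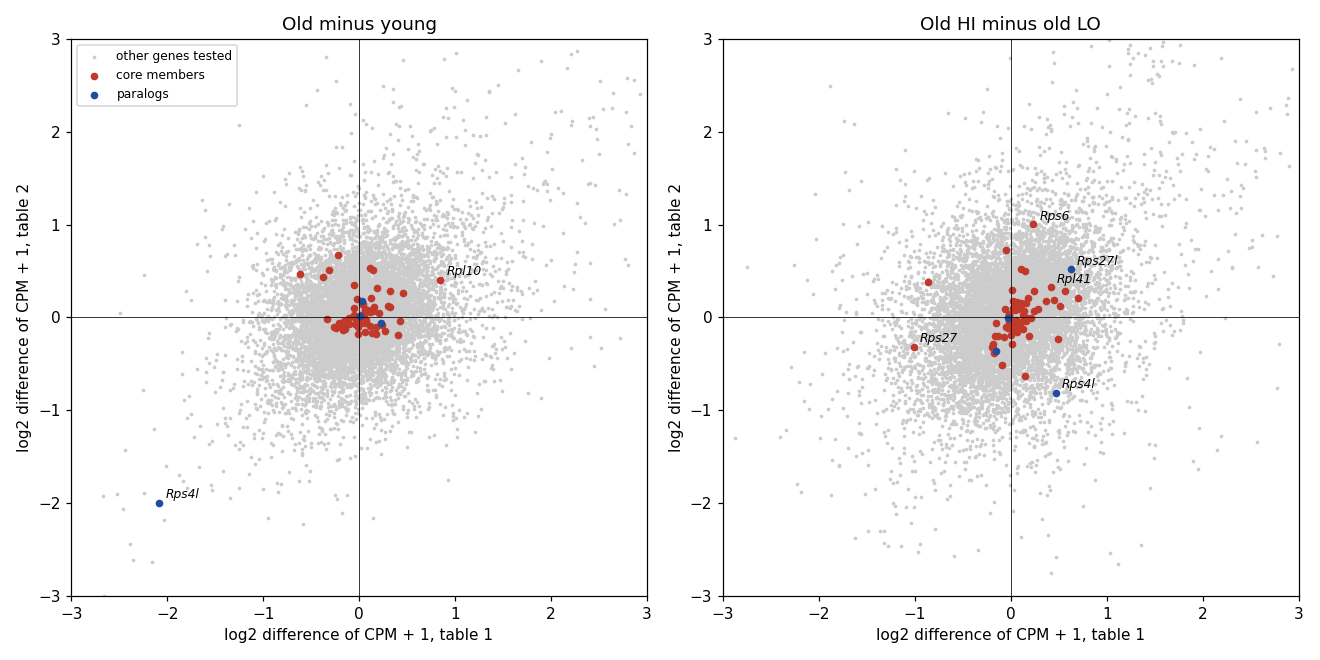
Log2 difference of CPM + 1 in the first table (x) and the second table (y) for old minus young (left) and old HI minus old LO (right), with core members in red, paralogs in blue and the other genes tested in grey (genes beyond 3 in size are not drawn). The core members sit around 0 in both panels, Rpl10 stands apart among them at 0.85 and 0.41 on the left, and the paralog Rps4l lies at -2.08 and -2.0.

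Among the old groups, MID cells had slightly higher levels of most members. Against young cells the median over the 66 core members was -0.02 (-0.01 and -0.04) for LO, 0.10 (0.08 and 0.08) for MID and 0.01 (0.02 and -0.03) for HI. These 3 comparisons share the young cells. Without the cells left out above for their cell cycle markers, the median against young cells was -0.0506 for LO and 0.0533 for MID. The counts of MID against LO and of HI against MID that follow were not repeated without those cells. The part of cell cycling in them was not tested. Against LO, 46 core members were higher in MID in both tables and 6 were lower in both, with a median of 0.12 (0.10 and 0.12), while over all genes tested 2901 were higher and 2683 lower in both tables. Among the 31 core members at 100 CPM and over, 26 were higher in MID than in LO in both tables and 1 was lower, beside 638 higher and 568 lower of the 2280 other genes at that level. In HI against MID, 38 core members were lower in both tables and 6 higher, with a median of -0.09 (-0.06 and -0.15), while over all genes tested 2908 were lower and 3317 higher in both. At 100 CPM and over 25 core members were lower and 1 higher, beside 689 lower and 787 higher of the other genes. The sizes were small. Against LO, 2 core members (Rpl15 and Rpl31) were past 0.32 in both tables in MID and 0 were lower, beside a background of 5.38% higher and 6.31% lower. In HI against MID 1 was (Rps6) and 0 were lower, beside 9.87% and 7.04%. Against young cells, Rpl10 alone was past it in LO and 0 were lower (background 9.69% and 10.1%). In MID 3 were, namely Rpl10, Rpl31 and Rps27a, and 0 were lower (8.76% and 9.32%). In HI 3 were, namely Rps6, Rpl27 and Rpl5, and 0 were lower (11.9% and 9.25%). Each of these counts is a smaller share of 66 than its background.

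The comparison of HI with LO cells, the ends of the label order among old cells, gave a median of 0.01 (0.04 and -0.02) over the core members, beside 0.02 over all genes tested. Of the core members 24 were higher and 14 lower in HI in both tables, beside 3576 higher and 3074 lower of all genes tested, and 59 of 66 (89.4%) had a mean difference smaller than 0.32, beside 58.3% of all genes tested. Rpl41 was the 1 core member past 0.32 in both tables, on the side of HI, and 0 were lower, beside a background of 11.8% higher and 8.97% lower. None met the size rule, beside 2.48% of all genes higher and 0.784% lower. Rpl41 encodes a very short basic peptide of the large subunit. HI cells had 85.3 and 89.5 CPM of Rpl41 and LO cells 63.6 and 71.3, while MID cells had 77.96 and 92.7 and young cells 73.3 and 76.4. HI and LO did not overlap, HI was level with MID, and the difference of HI minus LO was 0.37 (0.42 and 0.33), just past the limit in the second table.

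Rps6 had the highest value of HI minus LO, 0.62 (0.23 and 1.001), from 22.02 and 20.7 CPM in HI and 18.6 and 9.85 CPM in LO cells. Rps6 is the gene with the identical copy shown above, and with the reads of its pseudogene rows added the difference was 0.13. Rps6-ps4 alone had 44.7 CPM in HI and 46.6 in LO cells. Among the other highest were Rpl21 with 0.45 (0.70 and 0.21), Rps27a with 0.42 (0.57 and 0.28) and Rpl36a with 0.34 (-0.05 and 0.73). All of these had under 40 CPM and no window found in no other gene.

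Rps27 was lowest with -0.66 (-1.01 and -0.31), from 11.4 and 11.4 CPM in HI and 23.97 and 14.4 CPM in LO cells. Rpl10 followed with -0.30 (-0.09 and -0.51), Rpl12 with -0.28 (-0.18 and -0.38) and Rpl9 with -0.24 (0.15 and -0.63). Among well-read members, Rps9 was lower in HI, at 610 and 604 CPM, against 700.5 and 753 CPM in LO cells, with a difference of -0.26 (-0.20 and -0.32). Rpl13 had the same difference of -0.26 (-0.19 and -0.33). Leaving out the 1 cell with the most reads of a gene within a group and table moved the fold of no tested member by over 1.5 times. This held in old against young and in HI against LO.

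The mitochondrial ribosome is built from other proteins, and their genes were set beside the cytosolic ones. Of 75 tested mitochondrial ribosomal protein genes 61 were above 0 and 14 below in HI against LO, with a median of 0.26 (0.19 and 0.30), while over all genes tested 5608 were above and 5113 below 0. Past 0.32 in both tables were 11 higher and 1 lower, beside the background of 11.8% higher and 8.97% lower. In old against young cells their median was 0.03 (-0.07 and 0.02), with 1 gene past 0.32 higher and 2 lower in both tables, beside 9.23% and 6.67% of all genes. HI cells of both tables also had the higher G2 and M phase levels given above, and the part of cell cycling in this median was not tested.

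The paralog Rps4l differed most between old and young cells of all members. Rps4l is annotated as a transcribed processed pseudogene of 943 bases at chr6:148354656-148355598 on the plus strand. LO cells had 2.26 and 17.5 CPM of Rps4l, MID cells 13.2 and 5.25, HI cells 3.51 and 9.55, and young cells 29.95 and 46.1. Both young values lay above all 6 old values. The difference of old minus young was -2.04 (-2.08 and -2.0), and Rps4l met the size rule, as 0.672% of all genes tested did in the lower direction. Each old group met it against young cells, with -2.30 (-3.25 and -1.35) for LO, -2.02 (-1.13 and -2.91) for MID and -2.47 (-2.78 and -2.16) for HI, beside backgrounds of 1.44%, 1.11% and 1.38%.

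Summed over both tables, LO cells held 395 reads of Rps4l (exact 95% Poisson interval 357 to 436), MID cells 366 (329 to 405), HI cells 320.0 (286 to 357) and young cells 1612 (1534 to 1693). These Poisson intervals take each read as independent and cover no other variation. The reads carry no molecular identifiers, and 1 cell held 148 of the 255 reads of MID in the first table. The intervals are therefore too narrow even for counting error. Most cells of every group had none. After 501 cells were thinned to 100000 reads each (13 LO, 7 MID, 6 HI and 6 young cells had fewer and were left out), 14.6% of LO cells had a read (exact Clopper-Pearson 95% interval 8.91 to 22.1), as did 9.45% of MID cells (4.98 to 15.9), 12.2% of HI cells (6.99 to 19.3) and 30.5% of young cells (22.6 to 39.2). These intervals for percents count each cell as independent, although the cells of a group were taken as 1 sample. They therefore do not cover variation between animals. Without thinning, young cells with a read were 38.1% and 35.2% in the first and second table, which held 585 and 1027 of the reads. The part of sex in the old minus young difference was not tested. The cell with most reads held 76.7% of the reads of LO in the first table and 58.04% of those of MID in the first table. Without this MID cell the old minus young difference was -2.34. In HI against LO the tables had opposite signs (0.47 and -0.81), and the mean of -0.17 became 0.37 when the 1 LO cell was left out. Rps4x, its parent by name, averaged 117.8 CPM per kb (LO), 132.8 (MID), 135.5 (HI) and 145.7 (young cells), and was read in 100% of the cells of each old group and 99.3% of young cells.

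**Figure D4:**
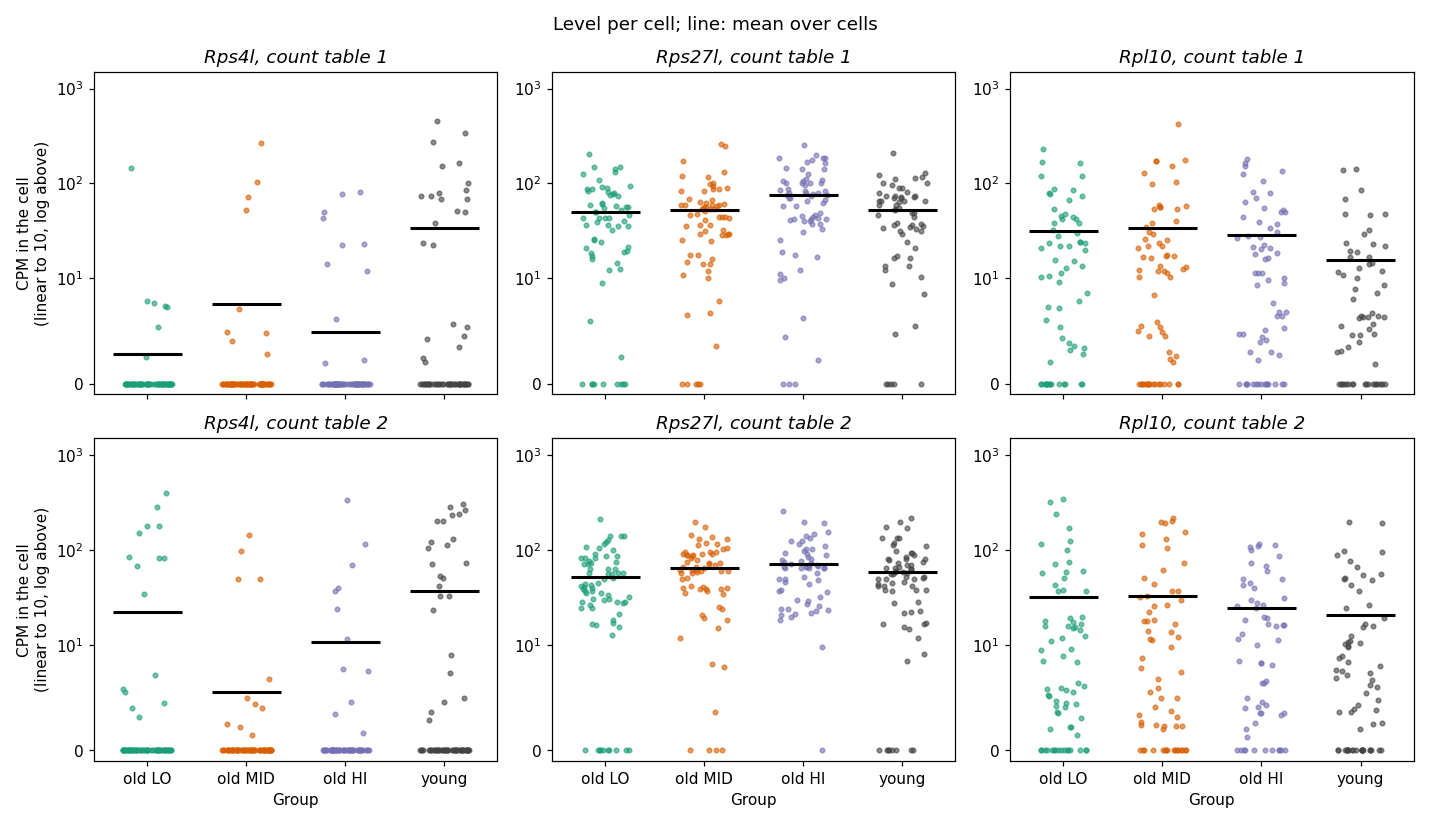
Level in single cells (CPM, linear to 10 and log above) of Rps4l, Rps27l and Rpl10 by group, with the first table above and the second below and the mean over cells as a line. Rps4l is at 0 in most cells of every group, with more young cells above 0 (24 of 63 and 25 of 71) than old cells, Rps27l is read in most cells with the highest means in HI, and Rpl10 has its lowest means in young cells.

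Rps27l, a relative of Rps27 that is a known p53 target, was higher in HI than in LO cells in both tables. HI cells had 69.3 and 72.8 CPM of Rps27l and LO cells 44.6 and 50.5, while MID cells had 46.5 and 68.6 and young cells 52.2 and 56.4. HI values were above all others, and the difference of HI minus LO was 0.57 (0.63 and 0.52), past 0.32 in both tables. Without the cells marked by at least 8 read genes of G2 and M phase it was 0.36. HI against young cells gave 0.38 (0.40 and 0.36), and old against young 0.11 (0.03 and 0.18). After thinning, 95.9% of HI, 82.1% of LO, 91.3% of MID and 85.9% of young cells had a read. Rps27 itself had the opposite sign in HI against LO.

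Rpl22l1, which can take the place of Rpl22 in the ribosome, averaged 36.1 CPM (LO), 39.5 (MID), 29.9 (HI) and 34.9 (young cells). HI minus LO was -0.26 (-0.16 and -0.36), while Rpl22 was at 0.10 (0.21 and -0.01). Rpl7l1, whose human relative acts in ribosome assembly, averaged 203 CPM (LO), 200.3 (MID), 199.7 (HI) and 191 (young cells), with differences of 0.08 (0.23 and -0.06) in old against young and -0.02 (-0.03 and -0.01) in HI against LO. Its parent by name, Rpl7, was at -0.06 (-0.01 and -0.10) and 0.00 (-0.02 and 0.02). Both lay within 0.1 of 0 on average in either comparison.

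The other paralogs were close to absent. Rpl3l, known from heart and skeletal muscle, had 17 reads in all, of which 16 were in 3 HI cells of the first table. Rpl10l, known from male germ cells, had 18 reads. Rpl39l, also a germ cell gene, had 0 reads, which allows up to 3 reads in each group. Their parents Rpl3, Rpl10 and Rpl39 were read in these cells at 219, 27.1 and 93.3 CPM on average over the groups. The retrocopies were low as well, with 1564 reads for Rps3a3, 585 for Rpl6l, 94 for Rps3a2 and 11 for Rps12l1, all under the level needed for a comparison.

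The ribosomal protein genes varied less between cells than other genes of their level. Spread is the standard deviation over the mean (CV) of the cells of a group and table after thinning to 100000 reads. For the 31 core members at 100 CPM and over, the median CV lay between 0.377 and 0.488 in the 8 groups and tables, and that of the 2280 other genes at this level between 0.873 and 1.08. For the 35 core members between 10 and 100 CPM it was 0.98 to 1.10, beside 1.58 to 1.94 for 8371 other genes. Cells are not replicates, so this describes these cells. Among the lowest mean CVs were those of Rpl4 at 0.303, Rps3 at 0.310 and Rps14 at 0.325. Rpl9 had the highest of the core members compared at 2.30, followed by Rps27 at 2.15, and Rps27a was also high at 1.89. The first 3 genes have 48.3% to 91.9% windows found in no other gene, and the last 3 have 0%. Rps4l stood at 3.81.

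**Figure D5:**
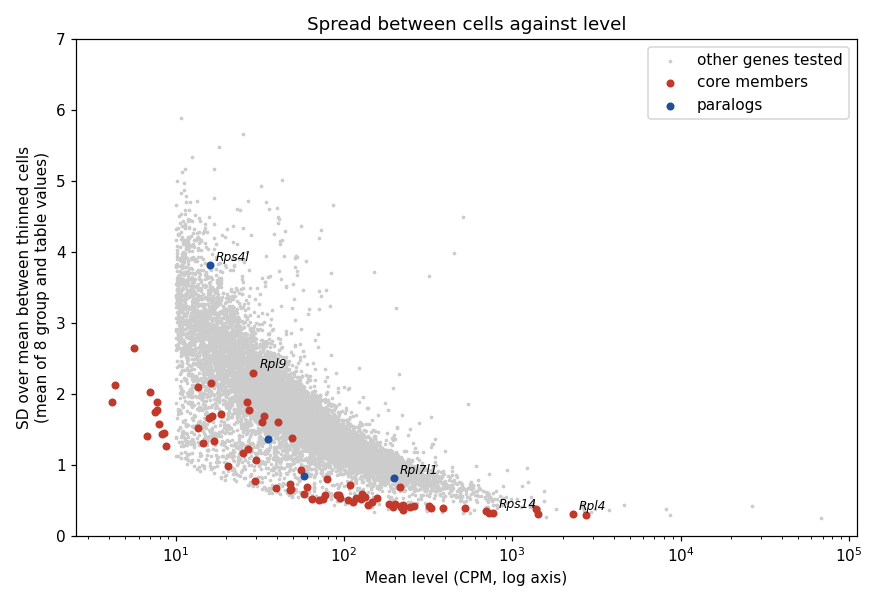
Standard deviation over mean between thinned cells (mean of the 8 values of groups and tables) against mean level in CPM (log axis) for core members with at least 1 CPM (red), paralogs (blue) and other genes tested (grey). Core members lie along the lower edge of the cloud, with Rpl4 at 0.303 and Rpl9 at 2.30, and Rps4l lies high at 3.81.

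Over all 66 tested core members the median CV of the first and second table was 0.548 and 0.541 for LO, 0.595 and 0.542 for MID, 0.561 and 0.592 for HI, and 0.617 and 0.603 for young cells. Young cells had the highest value in both tables for these 66 genes. At 100 CPM and over they were highest in the first table only, and between 10 and 100 CPM in the second only. Levels of pairs of the 31 well-read core members went together weakly from cell to cell. Median Pearson's r over 465 pairs lay between 0.184 and 0.261 in the 8 groups and tables (n = 57 to 69 cells each, which share depth and library).

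The other genes of the pathway mostly differed little between old and young cells. Of 18 translation factors and related genes with the same 5' tract, 0 were past 0.32 in both tables in old against young cells, and the median was 0.09 (0.07 and 0.05). Nap1l1, a histone chaperone, had the highest value with 0.20 (-0.14 and 0.55), and the poly(A) binding protein gene Pabpc1 the lowest with -0.18 (-0.22 and -0.14). HI against LO brought 1 past it, Nap1l1, with 0.83 (0.99 and 0.66). Eef2, the elongation factor, averaged 2685 CPM (LO), 2680.1 (MID), 2578 (HI) and 2347 (young cells), with 0.17 (0.13 and 0.22) for old minus young.

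Of 13 genes of mTORC1, the S6 kinases and LARP1, 2 were past 0.32 lower in old cells in both tables and 0 higher. These were Tsc1, a brake on mTORC1, with -0.57 (-0.37 and -0.76), and Pdcd4, a translation inhibitor that S6 kinase removes, with -0.47 (-0.41 and -0.54). Tsc1 averaged 80.1 CPM (LO), 81.7 (MID), 83.9 (HI) and 122.4 (young cells), so the old groups were alike. In HI against LO the subunit Mlst8 was lower with -0.65 (-0.63 and -0.67) and the cap-binding factor Eif4e higher with 0.39 (0.46 and 0.33). Rps6kb1, the main S6 kinase gene, was at 0.18 (0.10 and 0.26) in old against young cells.

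Of 12 genes listed under chaperones and assembly factors of ribosomal proteins, 10 were tested. In old against young cells 0 were past 0.32, with a median of 0.19 (0.11 and 0.24). Between HI and LO 3 were higher, Nap1l1 of the list before, Bccip with 0.59 (0.79 and 0.39) and Heatr3 with 0.40 (0.33 and 0.46). Lower was 1, Aar2 with -0.47 (-0.62 and -0.33), a gene for which such a role was not checked. Of 12 genes of ribosome rescue, quality control and ribophagy, 0 were past it in old against young cells. Here too 3 were higher in HI than in LO and 0 lower. Pelo, which frees stalled ribosomes, had 0.90 (0.46 and 1.33), Gtpbp1 0.67 (0.55 and 0.78) and Abce1, which splits ribosomes, 0.48 (0.62 and 0.34). Of the MDM2 checkpoint list 3 of 4 genes were tested. Mdm2 was lower in HI than in LO with -0.53 (-0.64 and -0.42), at 57.6 CPM in HI and 84.2 in LO cells, and Trp53 was at 0.31 (0.33 and 0.30). The background for these lists was 9.23% higher and 6.67% lower in old against young cells, and 11.8% higher and 8.97% lower in HI against LO.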

How the data were processed

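Each cell is 1 library. Raw read counts per gene come in 2 tables deposited by the authors. Per the submitters' processing notes, the tools were featureCounts 2.0.0 of Subread, STAR 2.7.3a and DESeq2, and the build was mm10, with no role or order given. How reads with several alignments were treated is not given in the sources used here, and the row for alignments that are not unique holds 0 reads in both tables. Unassigned reads stayed out of library sizes: reads without a feature were 34.8% and 31.5% of all reads in the 2 tables, ambiguous ones 3.80% and 4.26%, and reads not aligned 38.8% in each. Cells with at least 50000 nuclear reads, 1000 nuclear genes and at most 20% mitochondrial reads were kept. No cells had identical counts (0 pairs). Cells were sorted singly, and no doublets were called. Kept cells had 50339 to 1064879 reads, and the 4 groups summed to 38972543 (LO), 40419277 (MID), 49994422 (HI) and 41923291 reads (young).

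Counts were summed per group and table and scaled with TMM factors (edgeR 4.0.16 in R 4.3.3). Old stands for LO, MID and HI averaged. Genes with at least 10 CPM on average and a read in 10% of cells were compared, with a pseudocount of 1 CPM. The size rule required 1 on the log2 scale, 0.58 in each table, 20 CPM, a read in 20% of the cells of the higher group and no cell with over 20% of its reads. Coding sequences came from GENCODE M21, to which 45143 of 46078 gene identifiers were matched. Software was matplotlib 3.10.9, SciPy 1.17.1, pandas 2.3.3, NumPy 2.4.6 and Biopython 1.88 under Python 3.11.15.

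The members and lists were chosen with earlier results of these data known. Named are the 6 highest and 6 lowest core members per length and in each main comparison, the 4 highest and lowest by CV, paralogs with their parents, X-linked members and 16 others, apart from a few genes that are not reported here by name. Rpl14, Rpl15, Rpl31, Eef2, Rps6kb1 and the members under the level filter were named after their values were seen. Alternatives were other scaling (also DESeq2 1.42.0 size factors), pseudocounts and filters, means over cells, cells left out, pseudogene reads added, and single tables. Added after seeing the data were the retrocopies as a class, the genes at 100 CPM and over, and medians over members with over 10% distinct windows.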

Additional observations from a re-analysis of the deposited data

Results flagged for a closer look

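Reads outside the members' own rows were found in rows named as -ps pseudogenes of core members, which held 421562 reads. How many of these reads came from the genes was not tested. Samples were not set beside others of their group, because each group was taken as 1 sample.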

How the results depend on the processing

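No paired analysis was possible because the replicate numbers only count the cells of a group and no test was run. A value is given here when it shifted by more than the SD between the tables, pooled over comparisons or groups (chosen after the SD of MID against young alone proved near 0), or, for a count, by more than 1.5 times.

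For median differences of core members, leaving out the G2 and M phase cells gave -0.0506 for LO and 0.0533 for MID against young, and 0.0734 for HI against LO. HI against LO was 0.0478 in cells with at least 100000 reads and 0.0423 in the first table alone. Against young, the second table alone gave -0.0165 for old and -0.0258 for HI, members with over 10% distinct windows -0.0141 and -0.0414, and the stricter level filter -0.046 for HI.

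Core members past 0.32 in old against young numbered 3 with no level filter or with means over cells, and 0 with a pseudocount of 10 CPM, the stricter filter or only members with over 10% distinct windows. For HI against LO there were 4 with no level filter, 3 with means over cells or pseudogene reads added, 2 with a pseudocount of 0.1 CPM or without the G2 and M phase cells, and 0 with median-ratio size factors, a pseudocount of 10 CPM or members with over 10% distinct windows. Counts past the size rule were 0 under all 13 alternatives run for each comparison.

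With pseudogene reads added the part of reads was 1.88% (LO), 2.02% (MID), 1.83% (HI) and 1.91% (young), and it was 1.69% in HI without the G2 and M phase cells. Without thinning the CV averaged 0.52 (LO), 0.526 (MID), 0.495 (HI) and 0.557 (young), and it was 0.548 in HI without the G2 and M phase cells. The causes of these shifts were not tested. Values of single genes were not held to this pooled SD but to a limit that differed by gene. Of these values 1042 stayed within it and 70 did not, with 0 called values changing sign. Fau in HI against LO ran from -0.231 to 0.487 with 0 shifts counted. Rpsa in old against young, alike in both tables, ran from 0.053 to 0.12 with 8 counted. The 1042 values are therefore not all steady ones. Rps4l in old against young ran from -2.16 with a pseudocount of 0.1 CPM to -1.36 with 10 CPM.

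Counts of reads in place of molecules, groups without named animals and members that share sequence with copies limit all values.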

Other observations

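Proteins of the ribosome whose genes have names outside the symbol rule were read as well. Rack1, of the small subunit, averaged 1048 CPM (LO), 1176 (MID), 1173 (HI) and 1137 (young cells), with an old minus young difference of -0.01 (-0.06 and 0.04). Rpl36al, an autosomal relative of the X-linked Rpl36a, averaged 35.7 CPM (LO), 33.8 (MID), 37.6 (HI) and 33.6 (young cells).

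Cdkn1a, the p53 target that encodes p21, was under the level filter and averaged 7.28 CPM (LO), 13.9 (MID) and 9.83 (HI), against 2.33 CPM in young cells.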
